A study of Mus musculus with 12 samples.

Results

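Ribosomal protein genes encode the proteins that, with ribosomal RNA, build the large and small subunits of the cytoplasmic ribosome. The 77 genes described here are autosomal and protein-coding in the mouse annotation. Their symbol is Rpl or Rps followed by a number, with no ending other than a, l or x. The stalk genes Rplp0, Rplp1 and Rplp2 and the laminin receptor gene Rpsa are included. The members are 77 of 20661 autosomal protein-coding genes, with 47 genes of the large subunit and 30 of the small subunit. A further 4 genes that fit the name, Rpl10, Rpl36a, Rpl39 and Rps4x, lie on chromosome X and were left out.

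The series mapped GZF1, a zinc-finger protein that binds DNA, by chromatin immunoprecipitation (ChIP) from mouse embryonic stem cells whose fixed chromatin was cut with micrococcal nuclease. Of its 12 libraries 8 were analysed, with 1 library for every combination of line, genotype and antibody, so no comparison below has a replicate check or a p-value. The Cas9 line (Cas9-GFP cells) gave wild type, control and Gzf1 knockout with anti-GZF1, clone 35 overexpressing Gzf1-Flag with anti-FLAG, wild type with anti-H3K27ac, and input chromatin without antibody. The RGM line, a 129xCAST background, gave wild type with anti-GZF1 and clone 56 overexpressing Gzf1-Flag with anti-FLAG. Each tagged library comes from 1 clone with ectopic Gzf1-Flag, and anti-FLAG libraries without the tag were not analysed here. How the Cas9 control differs from the Cas9 wild type is not given in the sources used here.

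The libraries held 10.1 to 94.2 M reads, from a mean of 3.93 reads per autosomal 1 kb bin in the input and 8.61 in RGM wild type to 35.8 in the control. Levels are given as read density, the reads per 1 kb bin divided by the autosomal mean of the same library, so that 1 is the genome average. Over the 14 bins of Gzf1 itself (chromosome 2, 148679384 to 148692949, mm10) the anti-GZF1 density was 0.903 in the control and 0.688 in the knockout, but ChIP reads over a gene measure neither its RNA nor its protein and do not check the knockout label. As a check of the cell type, the median H3K27ac density in the start bin was 3.21 at 8 embryonic stem cell markers, 1.44 at 3 fibroblast feeder markers and 2.39 at all genes. The input had medians of 2.17, 0.509 and 2.04 at the same genes, so the order in H3K27ac was also the order in the input.

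Ribosomal protein genes are among the most highly transcribed genes of dividing cells. In mammals they are short and have sharply placed starts of transcription within a pyrimidine tract, which becomes the 5′ terminal oligopyrimidine (TOP) motif of the message and ties its translation to mTOR signalling. Many carry small nucleolar RNAs in their introns, and many have processed pseudogenes elsewhere in the genome, so that short reads from exons can match several places.

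These traits were visible in the annotation. The median member spanned 3183 bases against 17491 for all coding genes, with a range of 592 to 11774. Of the 77 members 27 (35.1%) held a small nucleolar RNA gene, 56 such genes in all, against 1.72% of all coding genes. Named pseudogenes were annotated for 56 members, 302 in all, with up to 23 each for Rpl31 and Rps12. The members lie on 18 autosomes, 14 of them on chromosome 7. The windows of 1 pair of neighbouring members share bins, so the values of that pair are not independent.

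The windows around the ends of ribosomal protein genes were richer in reads than those of the median coding gene in every library, the input included. A window is the set of 1 kb bins whose centre lies within 2 kb of either annotated gene end. With anti-GZF1 the median density of the 77 windows was 2.29 in Cas9 wild type (range 0.882 to 3.36) and 2.55 in RGM wild type (0.883 to 4.65), against 1.73 and 1.96 for all coding genes. With anti-FLAG it was 2.03 in Cas9 clone 35 (0.985 to 2.86) and 2.11 in RGM clone 56 (0.796 to 3.28), against 1.55 and 1.74. The control and the knockout were lower and close to each other, with medians of 1.52 (0.678 to 1.96) and 1.56 (0.884 to 2.09) against 1.21 and 1.23. H3K27ac, which marks active regulatory regions, had a median of 2.22 against 1.63, and the input had 1.87 against 1.51.

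Large and small subunit genes had similar windows. The median density of the 47 large subunit genes was 2.32 in Cas9 wild type and 2.59 in RGM wild type, and that of the 30 small subunit genes was 2.27 and 2.5. Members with a named pseudogene had a median of 2.66 in RGM wild type and 1.93 in the input, and the 21 members without one had 2.44 and 1.75. Whether reads from pseudogenes contribute to these levels was not tested, and how reads with several matches were placed is not given in the sources used here.

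**Figure D1:**
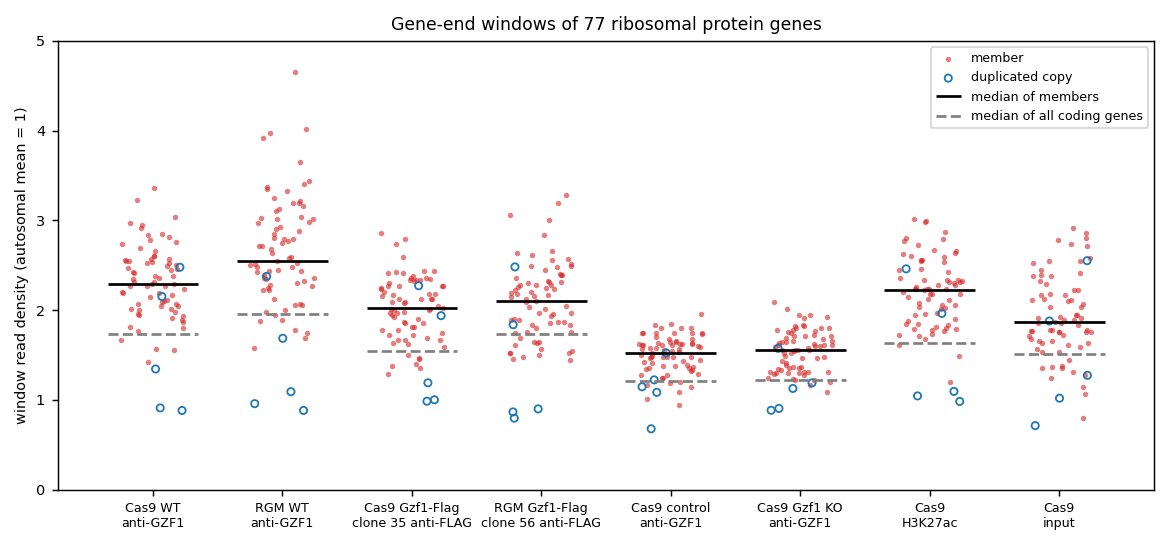
Read density (y axis, autosomal mean = 1) in the gene-end windows of 77 ribosomal protein genes in each of 8 libraries. Each point is a gene, open circles are 5 duplicated copies, solid bars are the members' medians and dashed bars the medians of all coding genes; the members' bar lies above the dashed bar in each library, input included (1.87 against 1.51).

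Relative to the input the members stood closer to other genes. The log2 ratio of ChIP to input density, each with a pseudocount of 0.5, had a median over the 77 members of 0.23 in Cas9 wild type and 0.31 in RGM wild type, against 0.12 and 0.25 for all coding genes. The medians were 0.05 and 0.10 in Cas9 clone 35 and RGM clone 56 (all genes 0.01 and 0.11), and 0.13 with H3K27ac (all genes 0.07). They were negative in the control and the knockout, −0.23 and −0.19, with −0.23 and −0.20 for all genes. All 77 windows passed the input filter, which keeps an input density of 0.25 to 3.

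Few windows reached a log2 value over input of 1, which is a ratio of 2 after the pseudocount. RGM wild type had 4 members at that level, where 2.12% of all coding genes reached it. No member reached it in Cas9 wild type, Cas9 clone 35, RGM clone 56, the control, the knockout or H3K27ac, where 0.0405%, 0.147%, 0.435%, 0.501%, 0.476% and 0.0759% of all coding genes did. With shares this low, a count of 0 among 77 genes is near the background.

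The 4 members were Rpl41, which encodes the shortest ribosomal protein, Rps7, Rps15 and Rpl12, whose protein sits at the base of the stalk. Rpl41 (chromosome 10, 128548110 to 128549168) had a density of 2.38 in Cas9 wild type, 4.65 in RGM wild type, 2.33 in Cas9 clone 35, 3.19 in RGM clone 56, 1.55 in the control, 1.83 in the knockout, 2.02 with H3K27ac and 1.88 in the input. Both RGM libraries were thus above the Cas9 libraries at this gene, and the log2 value over input was 1.11 in RGM wild type against 0.27 in Cas9 wild type. Rps15 (chromosome 10, 80292431 to 80294114) had 2.34, 3.97, 1.91, 3.0, 1.33, 1.34, 2.06 and 1.66 in the same order, with 1.05 and 0.40 over input. Rpl12 (chromosome 2, 32961712 to 32964045) had 1.89, 3.19, 1.67, 2.51, 1.38, 1.52, 1.76 and 1.32, with 1.02 and 0.39 over input. At all 3 genes RGM wild type was the highest of the 8 libraries and RGM clone 56 the next. These genes were picked for their RGM wild-type value over input, so the first place of that library follows largely from the choice. The input came from Cas9 cells alone.

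Rps7 and Rps6 stood at or near opposite ends of the ranking over input in most libraries. Their input densities lay near opposite ends of the members' range of 0.713 to 2.91. Rps6, the small subunit protein phosphorylated by S6 kinases (chromosome 4, 86854099 to 86857367), had the lowest log2 value over input of all members in 6 of 7 ChIP libraries, from −0.86 in the knockout to −0.38 in Cas9 wild type and H3K27ac, the exception being the control, where it had −0.64. Its density was 2.04, 1.87, 1.97, 1.57, 1.61, 1.31 and 2.03 in Cas9 wild type, RGM wild type, Cas9 clone 35, RGM clone 56, control, knockout and H3K27ac, but 2.80 in the input, where it rested on 77 reads. Rps7 (chromosome 12, 28630847 to 28635953) was among the 3 highest members over input in 6 of 7 ChIP libraries, with 0.42 to 1.10, and had 0.57 in Cas9 wild type. Its density was 1.43, 2.27, 1.28, 1.80, 1.45, 1.24 and 1.48 in the same order and 0.796 in the input, from 25 reads.

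Over the 77 members the Spearman rho between the log2 value over input and the input density of the same window ran from −0.50 in RGM wild type to −0.84 in the knockout. The input stands on both sides of this relation and some negative value follows from the arithmetic alone, so it is given as a description with no test.

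**Figure D2:**
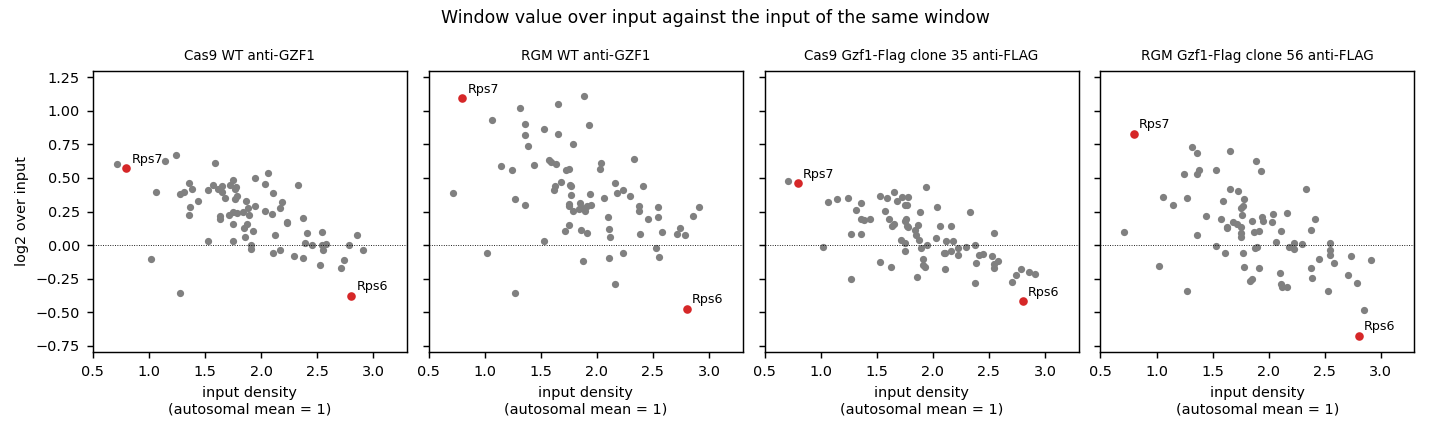
Log2 of ChIP over input density (y axis) against input density (x axis, autosomal mean = 1) for the windows of 77 ribosomal protein genes in 4 ChIP libraries. Each point is a gene; Rps7 (input density 0.796) and Rps6 (2.80) lie at the upper left and lower right of each panel, and the points tend to fall from left to right.

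Reads at ribosomal protein genes were concentrated in the bin of the transcription start. The RefSeq promoter table (GRCm38.p6, the assembly of mm10) holds a start for 57 of the 77 members and for 16456 coding genes, and the start bin is the 1 kb bin that contains it. The remaining 20 members, among them Rplp1, Rps14 and Rps27a, had no entry and enter only the window values. The mean density of the 57 start bins was 5.17 in RGM wild type, and fell to 2.51 in the bin upstream and 2.30 in the bin downstream. In Cas9 wild type it was 3.70, with 2.35 and 2.06 in the bins beside it. The input showed the same shape at lower height, with 2.75 at the start, 1.99 upstream and 1.85 downstream.

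**Figure D3:**
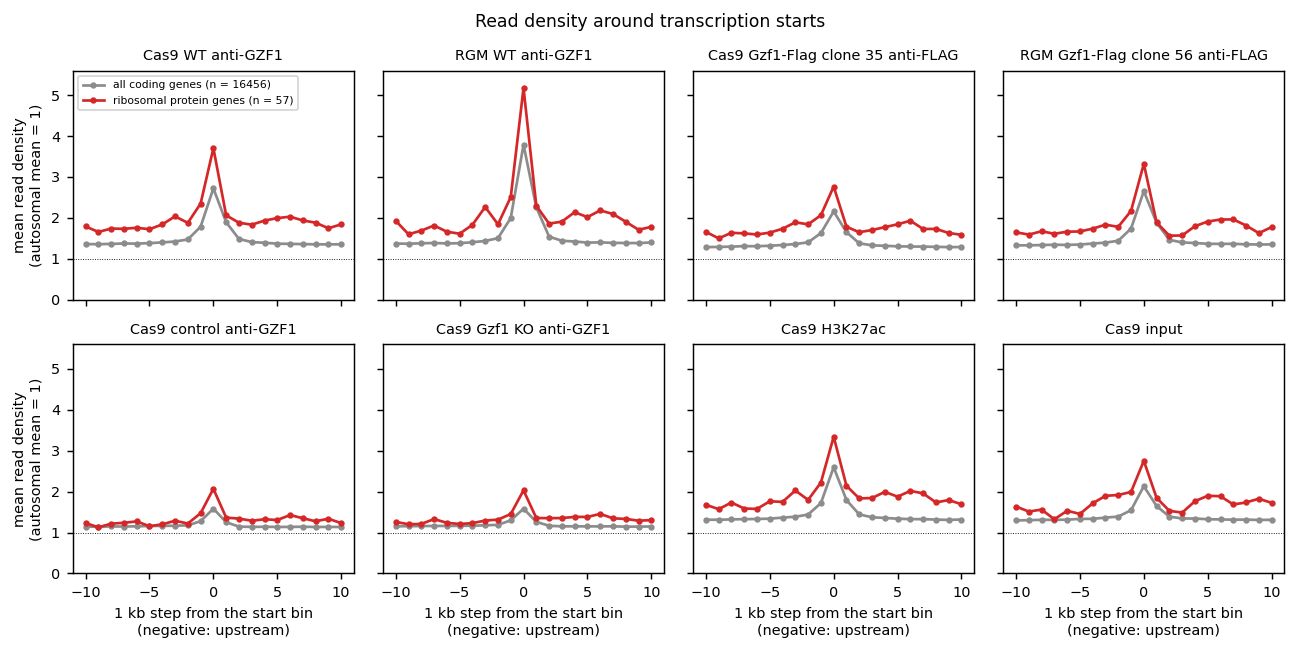
Mean read density (y axis, autosomal mean = 1) in 1 kb steps from the bin of the transcription start (x axis, upstream negative) for 57 ribosomal protein genes and 16456 coding genes in 8 libraries. Every panel has its maximum at the start bin, which is 5.17 for ribosomal protein genes in RGM wild type and 2.75 in the input.

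The median start bin of ribosomal protein genes was above that of all coding genes in each library. It was 3.61 in Cas9 wild type (range 1.22 to 7.60) and 5.21 in RGM wild type (0.813 to 9.99), against 2.72 and 3.51. It was 2.70 in Cas9 clone 35 (1.25 to 4.22) and 3.19 in RGM clone 56 (0.746 to 5.61), against 2.17 and 2.69. The control had 2.02 and the knockout 1.96, against 1.49 in both, H3K27ac had 3.11 against 2.39, and the input had 2.55 against 2.04. RGM wild type thus had the highest median start bin of the 8 libraries and the knockout the lowest.

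Against their own surroundings the start bins differed less from those of other genes. The flanks are the median of the bins 3 to 12 kb away on each side. The log2 ratio of the start bin to its flanks had a median of 0.90 in Cas9 wild type, against 0.73 for all genes. In RGM wild type it was 1.37 against 1.05, in Cas9 clone 35 0.59 against 0.53 and in RGM clone 56 0.85 against 0.69. It was 0.53 against 0.30 in the control and 0.52 against 0.30 in the knockout. With H3K27ac it was 0.70 against 0.63, and in the input 0.68 against 0.50. A value of 1 or more was reached by 21 of 57 members in Cas9 wild type, where 33.8% of all genes did, and by 41 in RGM wild type, where 51.6% did. With anti-FLAG 2 members, Rpl10a and Rplp0, reached it in Cas9 clone 35 (12.7% of all genes) and 15 in RGM clone 56 (31.5%). In the control it was reached by Rpl26, Rplp0, Rps18 and Rps19 (2.44%), and in the knockout by Rpl26, Rplp0 and Rps3 (2.47%). It was reached by 15 members with H3K27ac (27.7%) and by 11 in the input (24.5%). The members' counts can be read against those shares of all genes, as no test was made.

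Of the members, 19 reached 1 over their flanks in both wild-type anti-GZF1 libraries, and 7 of these also in the input. The share of all genes that did so in both is not given here. Each library by itself had 33.8% (Cas9 wild type) and 51.6% (RGM wild type) of all genes, so the 19 are no result about the members. Among the 19 are Rpl5 and Rpl11, whose proteins bind the p53 regulator MDM2 together with 5S ribosomal RNA. Rpl5 had start densities of 5.59 in Cas9 wild type, 6.62 in RGM wild type, 3.21 in Cas9 clone 35, 4.23 in RGM clone 56, 3.03 in the control, 2.41 in the knockout, 5.35 with H3K27ac and 3.90 in the input. Rpl11 had 3.60, 3.97, 2.54, 2.91, 1.97, 1.88, 2.96 and 2.04 in the same order. At both genes the wild-type anti-GZF1 libraries were above the input, the control and the knockout. Both genes were taken from the 19, which were picked for wild-type start bins high over their flanks. This order thus follows in part from the choice. The exact Poisson interval of the Rpl11 input, 0.880 to 4.02 from 8 reads, holds both wild-type values. That of the Rpl5 input, 2.20 to 6.40, holds the Cas9 wild-type value and overlaps that of RGM wild type (5.01 to 8.58).

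The stalk of the large subunit, which recruits elongation factors, is built on Rplp0 with pairs of Rplp1 and Rplp2. Rplp0 had the highest start bin of all members in RGM wild type, 9.99 (95% exact Poisson interval 7.99 to 12.3), and also in Cas9 clone 35. Its start density was 6.47 in Cas9 wild type (5.48 to 7.58), 4.22 in Cas9 clone 35, 4.03 in RGM clone 56, 3.15 in the control, 3.17 in the knockout, 4.72 with H3K27ac and 6.37 in the input (4.12 to 9.40). The input interval holds the Cas9 wild-type value, and it overlaps that of RGM wild type. Over its flanks the log2 value was 1.3 in Cas9 wild type, 1.94 in RGM wild type and 1.3 in the input. Rplp2 had start densities of 4.06, 6.42, 3.36, 4.25, 1.93, 2.68, 3.21 and 3.82 in the library order used above. Rplp1, which has no start entry, had window densities of 2.32, 2.30, 1.92, 1.52, 1.63, 1.41, 1.81 and 1.61.

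Rpsa, whose product is a small subunit protein also known as the laminin receptor, had a start density of 4.0 in Cas9 wild type, 3.72 in RGM wild type, 3.09 in Cas9 clone 35, 2.76 in RGM clone 56, 2.52 in the control, 2.58 in the knockout, 4.92 with H3K27ac and 1.34 in the input. Rps27a, made as a fusion with ubiquitin, had window densities of 2.32, 2.71, 1.97, 1.87, 1.74, 1.93, 2.22 and 1.57. Outside the list, Fau, made as a fusion with a ubiquitin-like protein, had 2.56, 3.16, 2.19, 2.97, 1.26, 1.54, 2.98 and 2.55. RGM wild type was the highest of the 8 libraries in the windows of Rps27a and Fau. In the start bin H3K27ac was the highest at both Rpsa and Fau, where Fau had 6.48 against 3.83 in RGM wild type.

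After Rplp0 the highest start bins in RGM wild type were Rps15 with 8.92 (7.04 to 11.2), Rpl9 with 8.81 (6.94 to 11), Rpl26 with 8.25 and Rpl12 with 8.05, and their intervals overlap. Rpl9 was the highest member in Cas9 wild type, with 7.60 (6.53 to 8.80), and had 3.36 in Cas9 clone 35, 3.73 in RGM clone 56, 2.28 in the control, 2.29 in the knockout, 5.61 with H3K27ac and 3.97 (2.25 to 6.49) in the input. Its Cas9 wild-type interval lies above the input interval by a small margin. Rps15 had 3.27 (2.58 to 4.08) in Cas9 wild type, 2.04, 4.05, 1.58, 1.79 and 2.60 in the next 5 libraries and 3.06 in the input, so its high value was found in RGM. Rpl26, whose protein lies near the exit tunnel, had 5.30 in Cas9 wild type, 4.13 and 5.61 in the tagged clones 35 and 56, 3.27 in the control, 3.41 in the knockout, 3.08 with H3K27ac and 3.16 in the input.

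The lowest start bins in the wild-type anti-GZF1 libraries belonged to duplicated copies of ribosomal protein genes. Rpl10l is a testis copy of the X-linked Rpl10, Rpl39l a testis-enriched copy of the X-linked Rpl39, and Rpl3l a muscle copy of Rpl3. In RGM wild type the start density was 0.813 at Rpl39l (0.327 to 1.68), 0.813 at Rpl32l (0.327 to 1.68), 0.929 at Rpl10l (0.401 to 1.83) and 1.86 at Rpl3l (1.06 to 3.02), and these were the 4 lowest of the 57. The same 4 were the lowest in Cas9 wild type, with 1.43, 1.22, 1.26 and 1.91. With anti-FLAG they had 1.43, 1.36, 1.25 and 2.49 in Cas9 clone 35 and 1.12, 0.746, 1.21 and 2.10 in RGM clone 56. In the control they had 0.559, 1.24, 1.62 and 1.1, in the knockout 0.814, 0.941, 1.2 and 1.01, and with H3K27ac 1.6, 1.09, 1.7 and 2.53. They were not the 4 lowest of the 57 in each library: Rpl10l was 48th from the top in the control, where it was above its Cas9 wild-type value, and Rpl3l was 39th in Cas9 clone 35 and 43rd with H3K27ac. At the first 3 the values of the 4 wild-type and tagged libraries thus lay between 0.746 and 1.43, near the genome average of 1.

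The input differed among these copies. It had 0.509 at Rpl39l and at Rpl32l, each from 2 reads with an interval of 0.0617 to 1.84, 1.91 (0.798 to 3.85) at Rpl10l and 5.40 (3.35 to 8.24) at Rpl3l. The first 3 intervals hold 1 and overlap, while Rpl3l was higher in the input than in either wild-type anti-GZF1 library. The fifth copy, Rps27l, a paralogue of Rps27 that responds to p53, did not share the low level, with 4.42 in Cas9 wild type, 5.78 in RGM wild type, 2.99 in Cas9 clone 35, 4.26 in RGM clone 56, 2.15 in the control, 2.0 in the knockout, 3.81 with H3K27ac and 4.33 in the input. Without the 5 copies the median start density of the other 52 members was 5.23 in RGM wild type and 3.62 in Cas9 wild type, and their lowest values were 2.60 and 2.04.

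**Figure D4:**
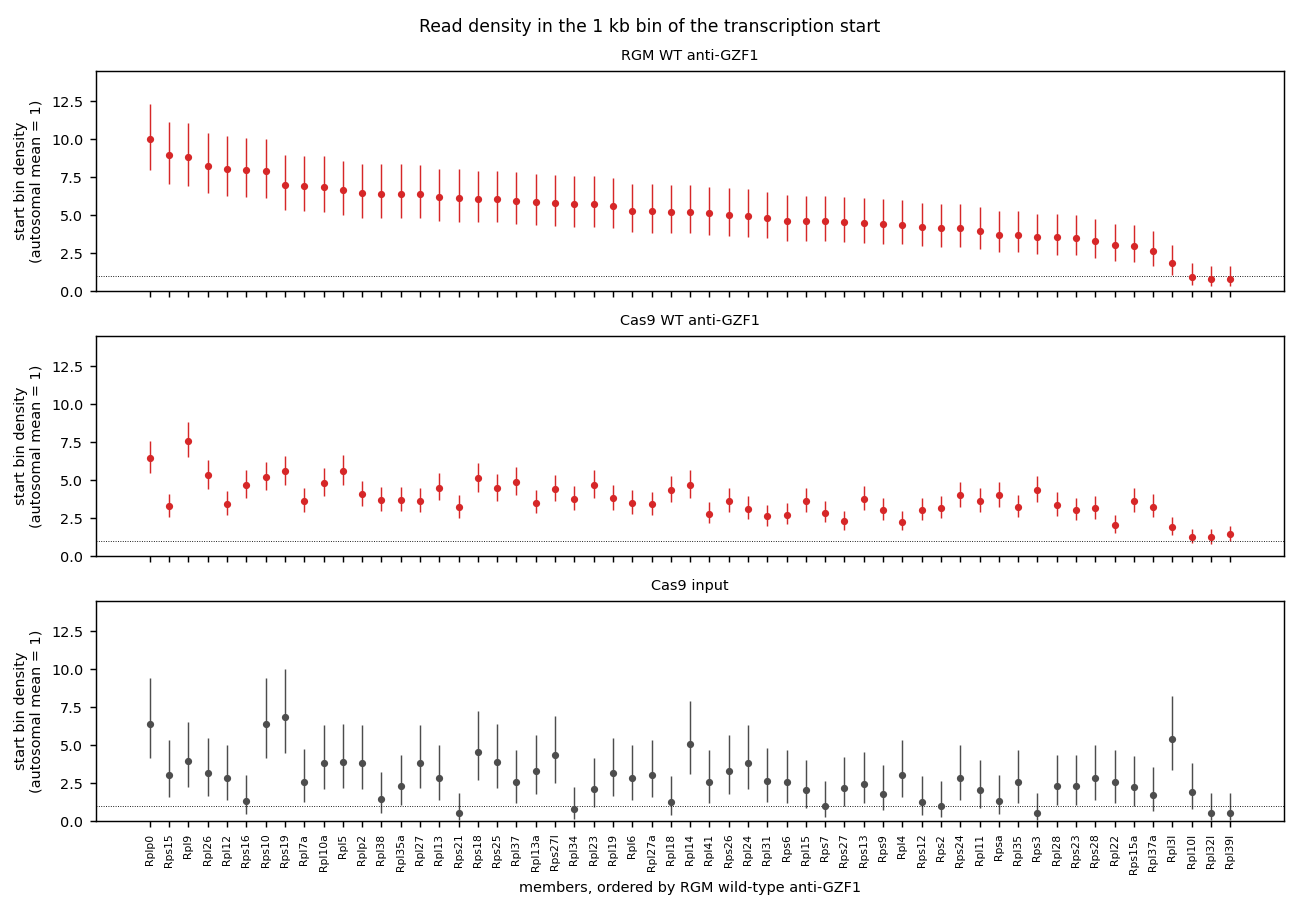
Read density in the start bin (y axis, autosomal mean = 1) of 57 ribosomal protein genes (x axis, ordered by RGM wild type) with anti-GZF1 in RGM and Cas9 wild type and in the Cas9 input; bars are 95% exact Poisson intervals. RGM wild type runs from 9.99 at Rplp0 to 0.813 at Rpl39l, and the copies Rpl3l, Rpl10l, Rpl32l and Rpl39l are at the right end in both anti-GZF1 panels.

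Sequences before these starts are shown for members with the 3 highest start bins in RGM wild type and for copies Rpl10l and Rpl39l. They are also shown for Rps6 and Rps7, which stood at or near opposite ends of the ranking over input in most libraries. Each is the 250 bases upstream of the start, 5′ to 3′ in the direction of the gene, from RefSeq on GRCm38.p6. Capitals mark TGCGC, the first bases of the consensus published for GZF1, and CCGGAA, a core bound by ETS factors, on either strand. The positions are chr5:115559217-115559466 (plus strand) for Rplp0, chr10:80292181-80292430 (plus) for Rps15, chr5:65391432-65391681 (minus) for Rpl9, chr4:86857368-86857617 (minus) for Rps6, chr12:28635954-28636203 (minus) for Rps7, chr12:66284402-66284651 (minus) for Rpl10l and chr16:10169978-10170227 (plus) for Rpl39l.
Rplp0 upstream: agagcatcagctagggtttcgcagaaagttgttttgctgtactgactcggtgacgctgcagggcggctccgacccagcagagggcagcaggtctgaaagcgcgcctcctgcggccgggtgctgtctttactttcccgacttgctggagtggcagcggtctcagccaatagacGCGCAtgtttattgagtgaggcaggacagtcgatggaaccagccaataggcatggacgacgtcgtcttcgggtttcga
Rps15 upstream: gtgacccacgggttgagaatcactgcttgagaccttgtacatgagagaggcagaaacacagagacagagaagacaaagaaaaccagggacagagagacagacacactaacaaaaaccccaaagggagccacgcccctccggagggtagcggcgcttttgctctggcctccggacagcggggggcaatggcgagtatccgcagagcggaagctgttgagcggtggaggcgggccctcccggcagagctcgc
Rpl9 upstream: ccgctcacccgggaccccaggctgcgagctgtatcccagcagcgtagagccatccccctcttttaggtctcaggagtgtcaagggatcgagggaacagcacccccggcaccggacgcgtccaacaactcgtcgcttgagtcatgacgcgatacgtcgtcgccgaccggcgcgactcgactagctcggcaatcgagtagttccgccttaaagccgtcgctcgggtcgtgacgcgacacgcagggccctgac
Rps6 upstream: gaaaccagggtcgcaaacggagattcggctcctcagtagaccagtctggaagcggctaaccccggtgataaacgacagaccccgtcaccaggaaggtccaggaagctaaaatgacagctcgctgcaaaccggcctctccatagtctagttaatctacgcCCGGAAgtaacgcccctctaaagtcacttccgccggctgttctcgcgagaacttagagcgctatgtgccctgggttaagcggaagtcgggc
Rps7 upstream: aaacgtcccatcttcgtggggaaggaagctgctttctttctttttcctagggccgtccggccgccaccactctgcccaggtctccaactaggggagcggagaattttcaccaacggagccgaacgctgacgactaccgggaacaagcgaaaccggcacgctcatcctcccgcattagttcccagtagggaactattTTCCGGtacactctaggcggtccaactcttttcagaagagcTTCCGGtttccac
Rpl10l upstream: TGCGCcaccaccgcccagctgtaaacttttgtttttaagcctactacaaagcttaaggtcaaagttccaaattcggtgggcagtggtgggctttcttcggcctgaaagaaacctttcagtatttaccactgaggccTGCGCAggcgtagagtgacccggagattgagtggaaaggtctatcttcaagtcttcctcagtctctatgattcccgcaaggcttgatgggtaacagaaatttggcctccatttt
Rpl39l upstream: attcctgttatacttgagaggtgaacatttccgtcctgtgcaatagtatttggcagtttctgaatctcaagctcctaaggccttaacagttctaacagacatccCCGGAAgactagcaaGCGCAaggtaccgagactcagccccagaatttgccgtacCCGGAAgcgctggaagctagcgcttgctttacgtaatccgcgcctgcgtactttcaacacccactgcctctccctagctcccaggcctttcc

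TGCGC or its reverse complement was found 1 time upstream of Rplp0, 3 times upstream of Rpl10l, where 2 of the matches overlap on opposite strands, and 1 time upstream of Rpl39l, and not in these letters upstream of Rps15, Rpl9, Rps6 or Rps7. Genes with the highest and with the lowest start bins thus both held it. At Rps15 it lies just after the start, within the 300 bases used next. Over 300 bases, 250 before and 50 after the start, on both strands, TGCGC was in 25 of 57 members (43.9%) against 38.7% of all 16456 promoters. Without the 5 copies, the 23 members with TGCGC had a median start density of 5.82 in RGM wild type, 4.0 in Cas9 wild type, 2.91 in Cas9 clone 35, 3.85 in RGM clone 56, 2.07 in the control, 2.25 in the knockout, 3.41 with H3K27ac and 2.57 in the input. The 29 without it had 5.03, 3.59, 2.81, 3.16, 1.97, 1.96, 2.96 and 2.55. The medians were higher with the motif in each library, the knockout included, but in the input the gap was less than 1 read, which is a density of 0.255.

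Other promoter letters were counted in the same way, with larger gaps to the table of all promoters for some of them. CCGGAA was in 28 of 57 members (49.1%) against 19.6% of all promoters, and AAGATGG, a core bound by YY1, in 9 (15.8%) against 6.41%. TATAAA was in 5 (8.77%) against 13.5%, and the E-box CACGTG in 5 (8.77%) against 7.97%. The 26 members with CCGGAA, copies left out, had a median start density of 5.22 in RGM wild type and 3.62 in Cas9 wild type, and the 26 without it 5.72 and 3.63. The median GC content was 57.0% for members and 56.7% for all promoters, with 7.0 and 4.67 CpG per 100 bases. Across the 57 start bins the Spearman rho of start density with GC content was 0.11 in the input, 0.19 in the control, 0.21 in the knockout and 0.36 to 0.42 in the other 5 libraries, which is given as a description.

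The pyrimidine tract of TOP messages was searched on the sense strand within 15 bases of the start, as CTTTC or CTTCC. The latter can overlap TTCCGG, which is CCGGAA read from the opposite strand. Of the 2 forms, CTTTC was in 16 of 57 members (28.1%) against 3.72% of all genes, CTTCC in 11 (19.3%) against 7.43%, and either in 23 (40.4%) against 10.8%. The 30 bases around the start are shown for members with long and short tracts, with the longest unbroken run of C and T in capitals. They come from the same RefSeq table at chr4:86857353-86857382 (minus) for Rps6, chr2:32961697-32961726 (plus) for Rpl12, chr5:115559452-115559481 (plus) for Rplp0, chr10:80292416-80292445 (plus) for Rps15, chr5:65391417-65391446 (minus) for Rpl9 and chr16:10170213-10170242 (plus) for Rpl39l.
Rps6 start: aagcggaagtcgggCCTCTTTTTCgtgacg
Rpl12 start: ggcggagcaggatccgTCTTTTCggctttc
Rplp0 start: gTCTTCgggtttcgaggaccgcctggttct
Rps15 start: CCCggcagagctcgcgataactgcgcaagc
Rpl9 start: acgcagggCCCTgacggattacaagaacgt
Rpl39l start: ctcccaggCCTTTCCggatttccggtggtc

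The wild-type anti-GZF1 libraries of both lines were compared at the start bins, to see whether the 129xCAST line carried more reads there. The median RGM to Cas9 ratio over the 57 members was 1.39, against 1.31 over all genes. The 95% exact (Clopper-Pearson) interval of the ratio lay above 1 at 25 members, where 32.1% of all genes did, and below 1 at 0 members, where 2.82% did. The largest ratios were 2.74 (1.97 to 3.81) at Rps15, 2.33 (1.67 to 3.26) at Rpl12, 1.98 (1.28 to 3.04) at Rps27 and 1.96 (1.26 to 3.04) at Rpl4. The smallest were 0.564 (0.211 to 1.29) at Rpl39l, 0.661 (0.244 to 1.54) at Rpl32l and 0.730 (0.289 to 1.63) at Rpl10l, whose intervals hold 1. Start bins of cell type markers were compared between the same libraries. Of the feeder markers with a start, 2 of 3 were higher in RGM wild type, with a summed density of 10.8 against 6.4 in Cas9 wild type: Col1a2 had 4.88 against 1.85, Vim 5.34 against 3.10 and Postn 0.581 against 1.46. Of the embryonic stem cell markers 7 of 8 were higher, with 34.1 against 22.7. Between the tagged clones, 2 of 3 feeder markers and 6 of 8 stem cell markers were higher in RGM. How many of all genes were higher in RGM is not given here, and their median wild-type ratio was 1.31. These marker counts are therefore no result about the markers. None of these markers was at 0, and the part of other cells in the RGM values was not tested. Intervals cover counting error only, and line and library cannot be told apart with 1 library each.

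The same antibody was compared in Gzf1 knockout and control Cas9 cells. In the control the members' median log2 value over input was −0.23. Its median start bin over the flanks was 0.53, against 0.68 in the input. By these medians the control did not rise above the input at these genes. A ratio near 1 therefore cannot tell whether anti-GZF1 reads there depend on Gzf1. Over the windows of the 77 members the median knockout to control ratio was 1.02, against 1.01 over all coding genes, with a range of 0.770 to 1.38. The interval lay below 1 at 5 members (Rpl15, Rps6, Rps7, Rps20 and Rps24), where 13.4% of all genes did, and above 1 at 12, where 17.3% did. It held 1 at the other 60. In the start bins the interval lay below 1 at Rps19 and Rps24 (7.02% of all genes) and above 1 at Rps3 (6.89%), of 57, with a median ratio of 0.971.

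Several of the windows farthest from 1 lie on chromosomes whose own median ratio departed from 1. That median was 0.906 on chromosome 14, 0.855 on chromosome 4, 1.20 on chromosome 8 and 1.23 on chromosome 18. The lowest members were Rpl15 with 0.770 (0.659 to 0.899) and Rps24 with 0.790 (0.676 to 0.923), both on chromosome 14, followed by Rps6 with 0.815 (0.700 to 0.948) and Rps20 with 0.831 (0.717 to 0.963), both on chromosome 4, and Rpl32l with 0.834 (0.669 to 1.04). The highest were Rpl17 with 1.38 (1.20 to 1.59) on chromosome 18, Rpl13 with 1.37 (1.19 to 1.57) on chromosome 8, Rpl39l with 1.3 (1.07 to 1.59), Rps23 with 1.3 (1.07 to 1.58) and Rpl35a with 1.27 (1.08 to 1.49). Divided by the ratio of its chromosome, Rps6 moved to 0.953 (0.819 to 1.11), Rps20 to 0.973 (0.839 to 1.13), Rpl17 to 1.12 (0.971 to 1.29) and Rpl13 to 1.14 (0.994 to 1.31), so that these 4 intervals held 1.

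After that division the interval lay below 1 at 3 members (8.64% of all genes), Rpl7, Rpl15 and Rplp1, and above 1 at 10 (12.6%). Rpl15 was the only member below 1 before and after, and 7 members were above 1 both times. The share of all genes off 1 both times is not given here, so these 2 counts are no result about the members. Rpl22, whose protein also binds other RNAs, had the largest value after the division, 1.40 (1.20 to 1.63) from 332.8 reads in the control and 366.7 in the knockout. Rps3, a small subunit protein at the entry of the messenger channel, was above 1 in the window with 1.22 (1.07 to 1.40) and in the start bin with 1.51 (1.11 to 2.05), while the start bin of Rps24 had 0.582 (0.396 to 0.845). Members with an interval off 1 were found on both sides.

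**Figure D5:**
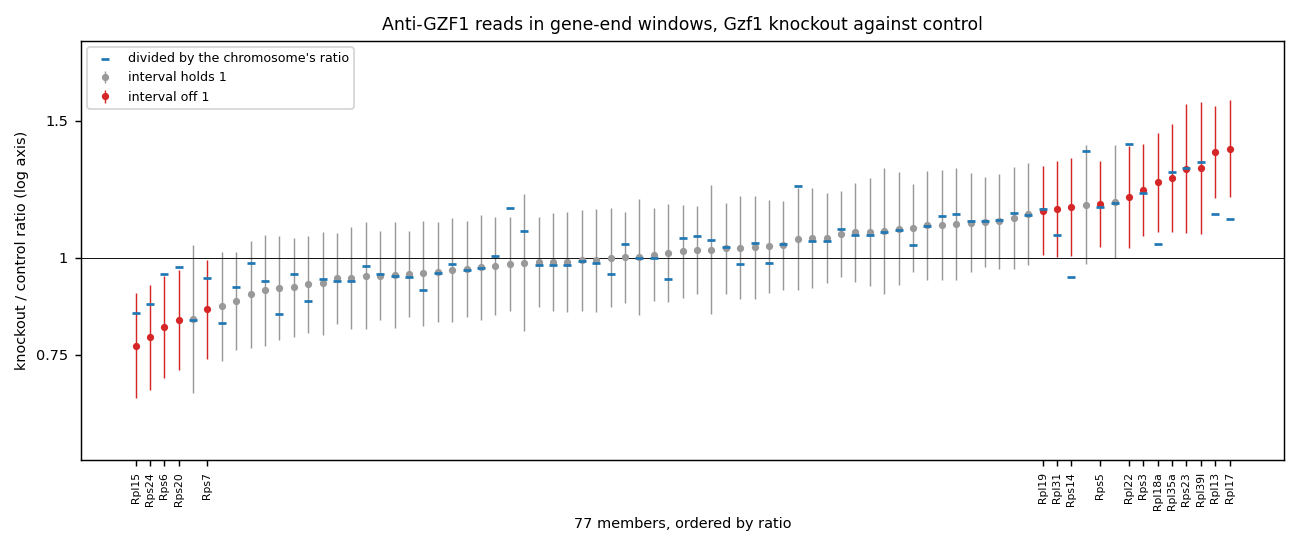
Ratio of scaled anti-GZF1 reads in the Gzf1 knockout to those in the control (y axis, log scale) for the gene-end windows of 77 ribosomal protein genes (x axis, ordered by ratio), with 95% exact binomial intervals. Red, with the gene's name, marks the 17 intervals that do not hold 1, and blue dashes give the ratio divided by that of the chromosome; the ratios run from 0.770 at Rpl15 to 1.38 at Rpl17.

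Single bins with a log2 value over input of 2 or more were rare and rested on few input reads. The windows of the 77 members cover 538 bins, of which 450 had an input density of 0.25 to 3 (8 were below and 80 above). Such bins numbered 4 in Cas9 wild type, where 0.202% of the bins around all coding genes passed, 13 in RGM wild type (1.1%), 2 in Cas9 clone 35 (0.0978%), 2 in RGM clone 56 (0.281%), 5 with H3K27ac (0.178%), and 0 in the control (0.0436%) and the knockout (0.0559%). As shares of the 450 bins these are 0.889%, 2.89%, 0.444%, 0.444% and 1.11%.

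The bins that passed in both wild-type libraries lie at Rps3 and Rps10, and no bin passed in both anti-FLAG libraries. How many of all bins passed in both is not given here, so this overlap is no result about the members. Both ratios of a bin also rest on the same few input reads. The Rps3 bin (chromosome 7, 99483001 to 99484000), which holds its start, had densities of 4.34, 3.55, 2.18, 2.84, 2.09, 3.15, 3.20 and 0.509 in the library order used above, the last from 2 input reads. The Rps10 bin (chromosome 17, 27634001 to 27635000) had 2.79, 3.02, 1.81, 1.80, 0.790, 1.77, 3.87 and 0.255, the last from 1 input read. The knockout was above the control at both bins, and the H3K27ac value was the highest of the 8 at Rps10. With the surrounding 10 kb in both directions as background in place of the input, 0 member bins reached 2 in any ChIP library. The share of all bins that did so is not given here, so this count is no result about the members.

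Other gene groups of protein synthesis had similar start bins. The 69 mitochondrial ribosomal protein genes with a start, which serve a separate ribosome, had a median start density of 3.71 in Cas9 wild type, 4.30 in RGM wild type, 2.58 in Cas9 clone 35, 3.17 in RGM clone 56, 1.95 in the control, 1.95 in the knockout, 3.44 with H3K27ac and 2.55 in the input. The 11 other translation genes with a start, such as elongation factors, had 3.65, 5.11, 3.06, 3.50, 2.15, 2.08, 3.95 and 2.29. The 12 ribosome assembly genes had 3.29, 5.45, 2.74, 3.29, 1.92, 1.98, 3.17 and 2.84. The cytoplasmic ribosomal protein genes, with 3.61, 5.21, 2.70, 3.19, 2.02, 1.96, 3.11 and 2.55, lay within the range of these groups in each library but H3K27ac, where they were just below it. Relatives outside the naming rule differed among themselves and lay within the members' range in RGM wild type. Rpl36al had 8.98 and Rps3a1 7.89 there, and Rpl22l1 had 3.60 and Rpl7l1 4.19.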

How the data were processed

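Per the submitters' processing notes, the tools were cutadapt, Bowtie2 2.5.4, SAMtools and deepTools, and the build mm10; how duplicates and reads with several matches were handled is not given in the sources used here. The authors deposited 1 table of estimated counts of reads per 1 kb bin, taken as not scaled to depth from the values: 100% were multiples of 0.05 and library totals differed. The table holds 8 of the 12 samples, matched by name, and the other 4 were not analysed here.

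Density is the read count relative to the library's average over all 2462755 autosomal bins. Windows, start bins and flanks are defined in the report. Ratios used a pseudocount of 0.5 and, over the shared Cas9 input, windows or bins with an input density of 0.25 to 3. Single values carry 95% exact Poisson intervals, and ratios of reads rounded to whole numbers 95% Clopper-Pearson intervals. These cover counting error only, since sequenced reads are not independent molecules. With 1 library per group no test was run.

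The members, lists and motifs were chosen with earlier results of these data known. Named are the 3 highest and lowest members over input per library, of which those of most weight are printed, the 5 largest knockout ratios each way, members with bins at 2 or more in both lines, the stalk genes, Rpsa and the duplicated copies; others were chosen after their values were seen, and a few genes are not reported here. RefSeq gene and promoter tables gave positions and letters; the start is the 5′-most entry. The ratio code was checked on simulated data. Alternatives were other pseudocounts (0.25 and 1), windows of 1 and 5 kb, scaling to the median, local background, omission of the input filter, a threshold of 1.5 and division by the chromosome ratio; those of the start bins were added after the data were seen. Python 3.11.15, numpy 2.4.6, pandas 2.3.3, scipy 1.17.1 and matplotlib 3.10.9 were used.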

Additional observations from a re-analysis of the deposited data

How the results depend on the processing

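Levels and counts moved with the settings; a median is taken to move where it leaves its 95% binomial interval over members, and the causes were not tested. No paired analysis was possible because each group has 1 library. Scaled to the median, the median window density was 2.51 in Cas9 wild type, 2.95 in RGM wild type, 2.26 in RGM clone 56, 2.35 with H3K27ac and 2.26 in the input, and the median log2 value over input was −0.042 in Cas9 clone 35, −0.40 in the control, −0.33 in the knockout and 0.069 with H3K27ac. With windows of 1 kb the density was 2.48 in Cas9 wild type, 2.87 in RGM wild type and 2.36 with H3K27ac, the value over input 0.51 in RGM wild type and −0.11 in the knockout, and the value over flanks 0.39 in Cas9 wild type, 0.65 in RGM wild type, 0.26 in the control, 0.24 in the knockout, 0.39 with H3K27ac and 0.24 in the input. With windows of 5 kb the density was 2.27 in RGM wild type, 1.93 in Cas9 clone 35, 1.45 in the control and 1.47 in the knockout, and RGM wild type had 0.26 over input.

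With a pseudocount of 1, RGM wild type had 0.26 over input, and the window value over flanks was 0.18 in Cas9 clone 35, 0.14 in the control and 0.15 in the knockout; with 0.25 it was 0.35 with H3K27ac. The start bin over its flanks had 0.50 in Cas9 clone 35 and 0.41 in the control with a pseudocount of 1, and 0.60 in the control with 0.25. Members with a knockout interval below 1 numbered 3 after division by the chromosome ratio (8.64% of all genes) and 8 with windows of 5 kb, where the share of all genes is not given here. Counts of bins at 2 or more over input are given for Cas9 wild type, RGM wild type, Cas9 clone 35, RGM clone 56, control, knockout and H3K27ac in that order. They were 13, 20, 11, 14, 1, 3 and 9 with a pseudocount of 0.25, 17, 32, 13, 16, 4, 7 and 18 at a threshold of 1.5, and 0, 2, 0, 0 with a pseudocount of 1 in the first 4 and 0 with H3K27ac. With local background they were 0 in the first 4 and 0 with H3K27ac. Without the input filter they were 10 in Cas9 wild type, 5 in Cas9 clone 35, 8 in RGM clone 56, 2 in the control, 1 in the knockout and 9 with H3K27ac. The counts of single bins therefore depend on the pseudocount and the input, which had a mean of 3.93 reads per bin. Shares over all bins under these settings are not given here, so the counts show the effect of the setting only. Leaving out the 5 copies, or members whose start entry lies over 500 bases from the gene end, moved the median log2 value of the start bin over its flanks beyond its interval in none of the 8 libraries.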
